A study of Mus musculus with 160 samples.

Results

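Heat shock proteins and DNAJ chaperones were read from RNA as 71 protein-coding genes of the 43432 genes in the deposited table. They were chosen by symbol alone (Hspa, Hspb, Hspd, Hspe, Hsph, Hsp90, Dnaja, Dnajb and Dnajc, without Hspa5, Dnajb9 and predicted or pseudogene symbols), a rule that uses no measured value, though the family was picked with earlier results of these data known. By symbol they are 9 Hspa genes, 3 genes of the HSP110 type, 3 Hsp90 genes, 10 Hspb genes, the 2 mitochondrial chaperonin genes, 4 Dnaja genes, 12 Dnajb genes and 28 Dnajc genes.

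The study measured 160 libraries from 32 mice, 1 library per mouse in cortex, striatum, tibialis muscle, heart and liver. The mice formed 4 arms of 8, with 4 males and 4 females in each, with oral dosing 2 times a day. R6/2 mice made up 3 of the arms and were given vehicle, 30 mg/kg or 100 mg/kg of CHDI-00390576, per the series title a class IIa HDAC inhibitor (HDAC: histone deacetylase). The last arm was wild-type mice given vehicle, and no wild-type mice received the compound. All arms share the C57BL/6J background. R6/2 mice carry a transgene of the first exon of human HTT with an expanded CAG repeat and model Huntington's disease. The age of the mice is not given in the sources used here.

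HSP70 proteins bind unfolded stretches of other proteins and release them as they hydrolyse and exchange ATP. J-domain proteins (the DNAJ families) bring clients to HSP70 and start its ATP hydrolysis, HSP110 proteins exchange the nucleotide, HSP90 matures partly folded clients, small heat shock proteins (most Hspb genes) hold unfolded proteins in solution, and HSP60 with HSP10 folds proteins inside mitochondria. In cell and animal models, several J-domain proteins and HSP70 reduce the aggregation of polyglutamine proteins such as mutant huntingtin. Many cytosolic members are induced by heat shock factor 1 (Hsf1), which binds inverted repeats of the unit GAA, called heat shock elements.

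Levels are given as CPM, counts scaled to library size, as the lowest, the median and the highest of the 8 mice of an arm. Changes are log2 fold changes ± SE from edgeR's quasi-likelihood test with sex as a term, adjusted with Benjamini-Hochberg over all genes tested in a tissue; a value in brackets beside levels is such a log2 fold change. "Rose", "fell" and "changed" mean an adjusted p under 0.05 with n = 8 mice per arm, and p-values measure the spread between mice. Of the 71 genes, 65 could be tested in cortex, 64 in striatum, 63 in tibialis, 63 in heart and 60 in liver, and 59 in all 5 tissues. Dnajb7, Dnajb8, Dnajc5b, Dnajc5g and Hspb9 were too low to test in any tissue.

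Library totals were 30.1 to 39.0 M counts. Gm12695, a gene with no known part in protein folding that separates the genotypes in these libraries, was at 0.769 CPM or more in every R6/2 vehicle library and at 0.266 CPM or less in every wild-type library. In 2 libraries, the cortex and striatum of 1 wild-type mouse labelled female, the genes of the X and Y chromosomes contradicted the sex label. Those genes matched the label in the tibialis, heart and liver of that mouse, and the reason was not tested. Another 16 libraries held fewer counts of long transcripts than the rest of their tissue. Without these libraries, repeats covered the counts of members, the largest rises and falls per tissue, the genes past the dosing test and the sex differences. Among those, results that change are given with both values. Most other calls are given without that check. Examples are the striatum changes of Dnajc15, Hspb11, Dnajc9, Dnajc24, Dnaja4 and Hspb8 and the tibialis rise of Dnajc6. The library strand is not given in the sources used here, so reads of a member cannot be told apart from those of an overlapping gene. Among the members described below, Dnaja1, Dnaja3, Dnaja4, Dnajb3, Dnajb6, Dnajb13, Dnajc1, Dnajc7, Dnajc14, Dnajc17, Dnajc18, Dnajc19, Dnajc25, Dnajc30, Hspa1a, Hspa12a, Hspa12b, Hspb2, Hspb6, Hspd1 and Hspe1 overlap a protein-coding gene in the annotation. Dnajb14, Dnajc6, Dnajc8, Dnajc13, Dnajc24, Dnajc28, Hsp90b1, Hspa1l, Hspa8, Hspa9, Hspa13, Hspb11 and Hspbap1 overlap a non-coding gene or a pseudogene. The values of all of these are uncertain to that extent.

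The promoters of the family show which members carry the sequence that Hsf1 is known to bind. RefSeq promoters on GRCm38.p6, from 250 bases before to 50 bases after the transcription start, were at hand for 57 of the 71 members. The rest, among them Hspa8, Hspa9, Hspa13, Hsp90aa1 and Hsp90ab1, were not scanned, so their absence below says nothing about their promoters. The 3-unit element (GAA NN TTC NN GAA or TTC NN GAA NN TTC, written here with spaces and searched without them on both strands) stood in 4 members, or 7.02% of those with a promoter, against 0.662% of all genes with one. Stretches of 30 bases around it are printed with the units in capitals. The Hspd1 and Hspe1 lines are the same stretch of the shared promoter of a head-to-head gene pair, read on opposite strands, so they are 1 element and not independent matches.
Hspd1, chr1:55088053-55088082, minus strand: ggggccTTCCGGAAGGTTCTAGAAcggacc
Hspe1, chr1:55088053-55088082, plus strand: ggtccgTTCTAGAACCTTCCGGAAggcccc
Dnajb6, chr5:29735844-29735873, plus strand: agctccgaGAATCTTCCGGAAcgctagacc
Hsph1, chr5:149636279-149636308, minus strand: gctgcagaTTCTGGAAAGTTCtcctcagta

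The shorter 2-unit element (GAA NN TTC or TTC NN GAA, both strands, which also matches inside every 3-unit element) stood in 16 members, or 28.1%, against 17.0% of all genes with a promoter. Stretches of 9 members described in the results are shown, again with the units in capitals. Hspa1a and Hspa1b carry the same 30 bases at different places on chromosome 17, and the Hspb1 stretch holds the element at both ends.
Hspa1a, chr17:34972242-34972271, minus strand: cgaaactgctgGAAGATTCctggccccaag
Hspa1b, chr17:34959324-34959353, minus strand: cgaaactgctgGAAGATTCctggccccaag
Hspb1, chr5:135887801-135887830, plus strand: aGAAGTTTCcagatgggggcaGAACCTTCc
Hspb8, chr5:116422844-116422873, minus strand: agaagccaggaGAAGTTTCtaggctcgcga
Hspb3, chr13:113663882-113663911, minus strand: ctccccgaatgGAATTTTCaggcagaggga
Hspb6, chr7:30553170-30553199, plus strand: aagtaattattGAAGTTTCtaaataaggaa
Dnaja4, chr9:54699458-54699487, plus strand: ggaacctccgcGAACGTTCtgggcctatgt
Dnajb4, chr3:152193841-152193870, minus strand: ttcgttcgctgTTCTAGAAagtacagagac
Dnaja1, chr4:40722333-40722362, plus strand: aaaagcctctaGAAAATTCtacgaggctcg
A match is a description of the letters and no proof of binding.

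Per length, the family is led in each wild-type tissue by a few genes. In wild-type cortex Hspa8, the constitutive cytosolic HSP70, averaged 518 ± 90.8 FPKM, followed by Hsp90ab1 at 491 ± 14.5 and Hsp90aa1 at 348 ± 20.3 FPKM (SD, n = 8), the constitutive and the inducible cytosolic HSP90. Striatum had the same 3 genes on top. In tibialis the small heat shock protein gene Hspb6 led with 422 ± 107 FPKM, and in heart Hspb7, a small heat shock protein of heart and skeletal muscle, led with 465.7 ± 30.2 FPKM. In liver Hspa8 averaged 286 ± 62.4 FPKM and Hsp90b1, the HSP90 of the endoplasmic reticulum, 276 ± 53 FPKM, which differed by less than their spread. The Hspa8 values leave out counts assigned to its near-identical copies, described below. In wild-type mice these copies averaged 315 CPM of a sum of 1004 CPM in liver and 537 CPM of 1743 CPM in cortex. The level of Hspa8 and its rank in each tissue are uncertain to that extent.

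The first question is which chaperone genes differ between R6/2 and wild-type mice when both are given vehicle. In cortex 24 members rose and 12 fell, against a background of 28.1% of all tested genes higher and 25.8% lower, or 53.9% in either direction. The members' share of 55.4% called in cortex is close to that background. In striatum 17 rose and 8 fell, with 42.4% of all tested genes called (22.6% higher and 19.8% lower). In tibialis 15 rose and 24 fell, a share of 61.9%, with 45.9% of all tested genes called (23.6% higher and 22.2% lower). In heart 1 rose and 13 fell, with 14.4% of all tested genes called (6.96% higher and 7.46% lower); without the libraries of few long transcripts 2 rose and 21 fell. In liver 1 rose and 9 fell, with 12.8% called (6.5% higher and 6.32% lower); without those libraries 3 rose and 9 fell, and with the 2 arms fitted alone 2 rose and 2 fell. The fit of 2 arms alone gave 11 rises in striatum. Shares of all genes are not given for these alternative fits, so the shifts in count are not read as a trait of the members. The median log2 change of all tested members was 0.05 in cortex, 0.06 in striatum, -0.02 in tibialis, -0.12 in heart and -0.10 in liver, against 0.02, 0.04, 0.03, 0.01 and 0.01 for all tested genes.

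These directions are relative to the typical gene of a tissue. On the deposited FPKM scale the median of all genes was itself higher in R6/2 by 0.63 (log2) in tibialis and by 0.10 to 0.13 in the other tissues. Read there without centring, 51 members were higher and 4 lower in tibialis, 7 higher and 5 lower in heart, 8 higher and 1 lower in liver, and 34 higher and 7 lower in cortex. The balance of the members thus turns to higher in tibialis, heart and liver on that scale. After centring on the median gene the counts were 14 higher and 24 lower in tibialis, 1 and 15 in heart, 1 and 7 in liver, and 23 and 11 in cortex. Shares of all genes called are not given for the FPKM counts here or below. The falls below are falls relative to the median gene.

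**Figure D1:**
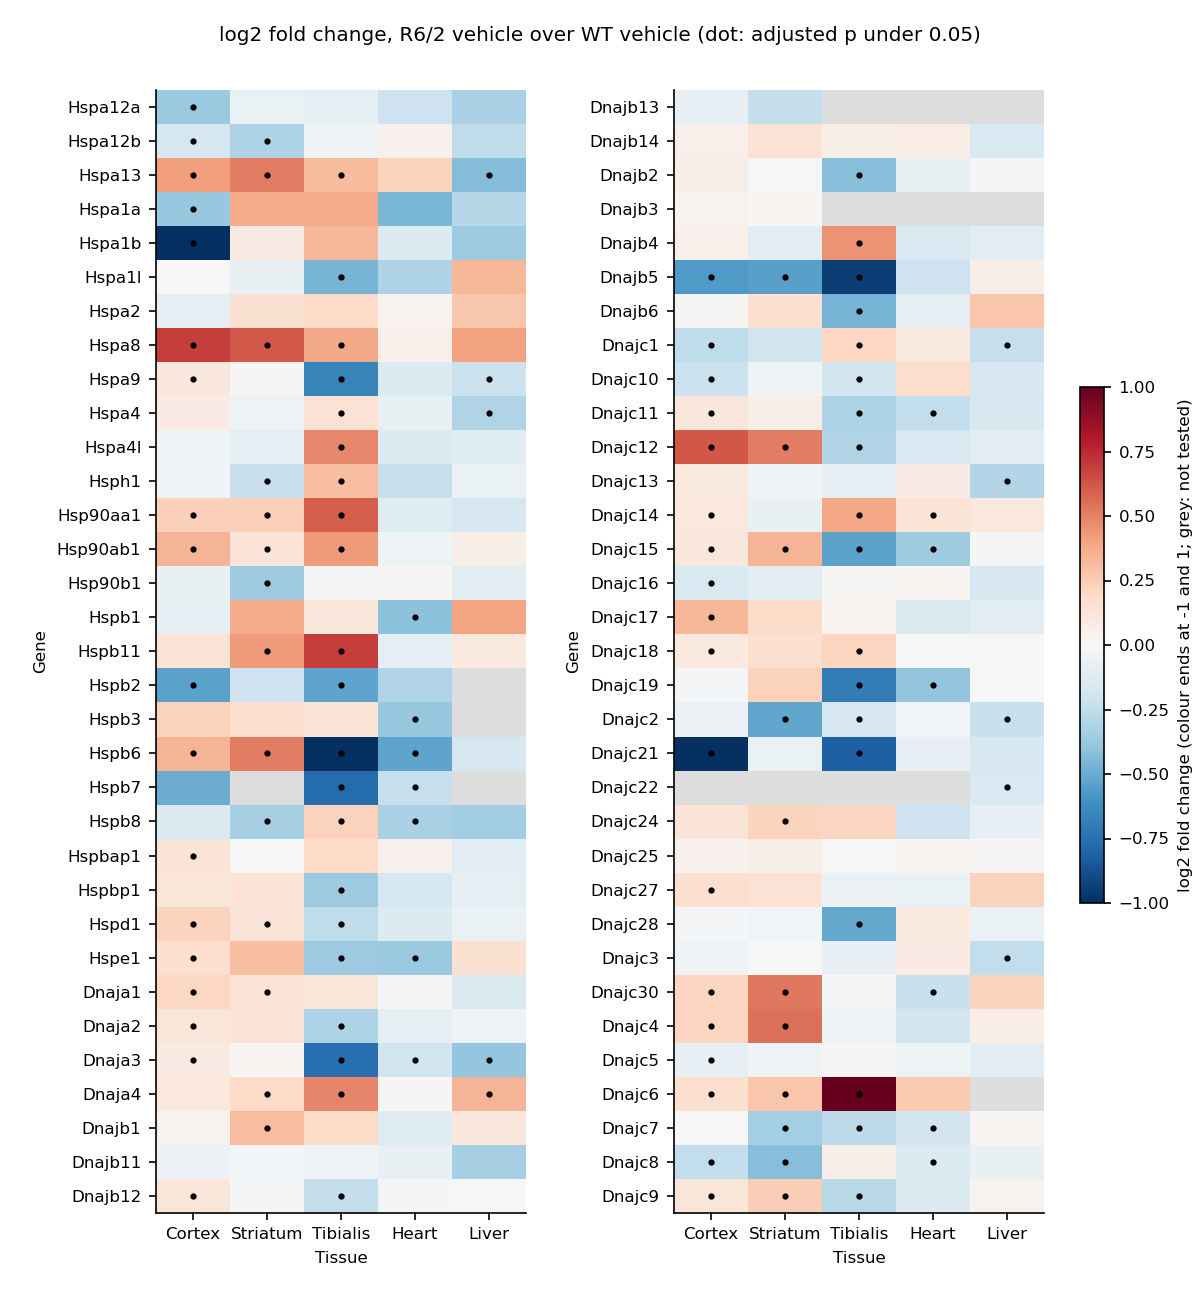
Log2 fold change of every tested member (rows, grouped by family) in 5 tissues (columns), R6/2 vehicle over wild type. Red is higher and blue lower in R6/2, grey was not tested, colours end at 1 and a dot marks an adjusted p under 0.05; heart and liver hold 1 rise each, and the tibialis directions are relative to the median gene.

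Groups without any overlap were fewer. In cortex 6 members had all 8 R6/2 vehicle mice above and 4 had them below all 8 wild-type mice (21% of all tested genes separated in either direction). The separated members were 3 above and 3 below in striatum (15.2%), 6 above and 11 below in tibialis (19.3%), 5 below in heart (1.57%) and 1 below in liver (1.36%). Heart had 0 members above and liver had 0 above.

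Hspa8 had the highest wild-type FPKM of the HSP70 genes in all 5 tissues, and its counts need care. In cortex it measured 1415, 1978 and 2465 CPM in R6/2 vehicle mice, against 996, 1144 and 1714 CPM in wild-type mice, with a log2 fold change of 0.69 ± 0.12, adjusted p = 9.7e-06. In striatum the levels were 1258, 1506 and 2125 CPM in R6/2 vehicle mice and 842, 1049 and 1518 CPM in wild-type mice (0.61 ± 0.14, adjusted p = 0.000539). The genotypes overlapped only through 1 wild-type mouse, the same in both tissues, at 1714 CPM in cortex and 1518 CPM in striatum. Hspa8 also rose in tibialis (log2 fold change 0.38 ± 0.14, adjusted p = 0.0227), and its change did not pass the test in heart (0.05 ± 0.12, adjusted p = 0.809) or liver (0.40 ± 0.15, adjusted p = 0.0662).

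The table holds 4 near-identical copies of Hspa8, among them Gm15459 on chromosome 5. Over the 1941 coding bases of Hspa8 the 2 sequences differ at 5 bases, and the stretch from coding base 84 to 143 is shown because it holds 1 of them, in capitals.
Hspa8: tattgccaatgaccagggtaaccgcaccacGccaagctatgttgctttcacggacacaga
Gm15459: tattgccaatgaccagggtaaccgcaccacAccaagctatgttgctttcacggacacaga
Such copies can take each other's reads. In heart the 4 copies summed to 8.77 to 46.6 CPM in 10 mice and to 402.9 to 507.2 CPM in the other 22 mice, with no mouse between. The 10 mice were 4 given vehicle, 3 at 30 mg/kg and 2 at 100 mg/kg among the R6/2, and 1 wild type. The same 10 mice had the lowest summed copies in cortex (26.7 to 52.5 CPM, against 521.7 to 899.3 CPM in the rest), in tibialis and in liver. In striatum the split was less clean, at 20.8 to 327.2 CPM in the 10 mice, against 437.3 to 916 CPM in the rest. Hspa8 itself was at 1055 to 1240 CPM in the hearts of these 10 mice and at 668.8 to 866.4 CPM in the other 22. The mice thus form 2 sets in the split of counts between Hspa8 and its copies, which is shared unevenly between the arms. What divides them was not tested.

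Adding the copies to Hspa8 gave tighter groups. The cortex sum was 2144, 2410 and 2518 CPM in R6/2 vehicle mice, against 1518, 1761 and 1981 CPM in wild-type mice, and the striatum sum was 1905, 2092 and 2208 CPM in R6/2 vehicle mice, against 1279, 1539 and 1740 CPM in wild-type mice. All R6/2 mice then lay above all wild-type mice in both tissues, with log2 fold changes of 0.46 ± 0.04, adjusted p = 1.26e-10 in cortex and 0.43 ± 0.06, adjusted p = 5.68e-07 in striatum. The tibialis call was lost (0.16 ± 0.07, adjusted p = 0.0516). In heart the sum fell, to 1070, 1129 and 1196 CPM in R6/2 vehicle mice, against 1182, 1283 and 1356 CPM in wild-type mice (-0.18 ± 0.05, adjusted p = 0.0091), with overlap. In liver it did not pass (0.17 ± 0.10, adjusted p = 0.294). The sum with copies was chosen after the data were seen.

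**Figure D2:**
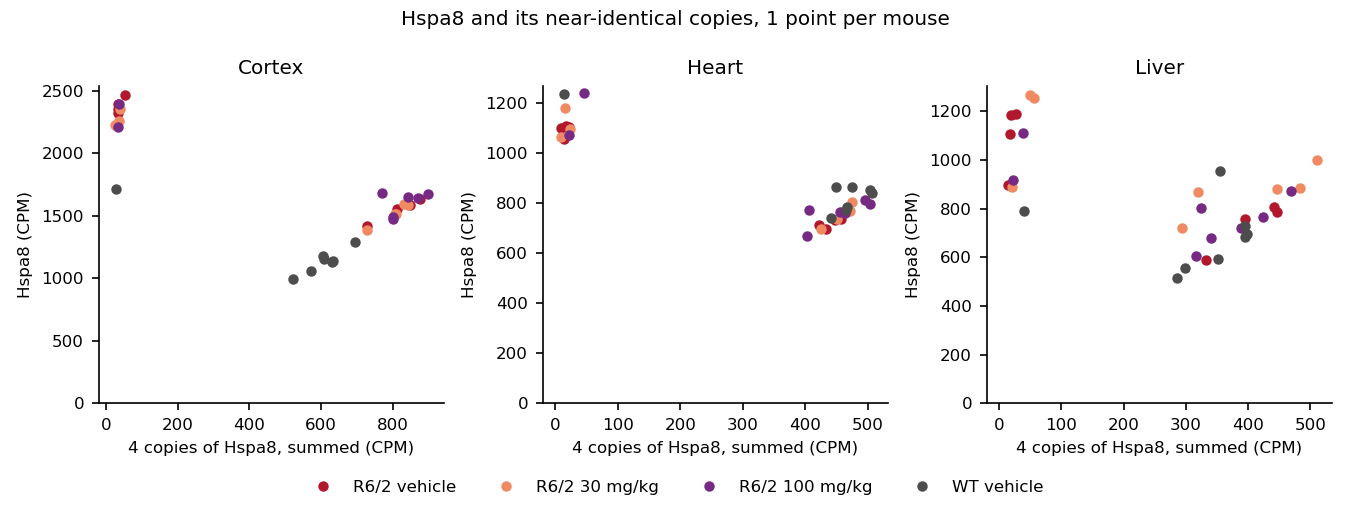
Hspa8 (vertical axis, CPM) against its 4 near-identical copies summed (horizontal axis, CPM) in cortex, heart and liver, 1 point per mouse, coloured by arm. In heart 10 mice lie at 8.77 to 46.6 CPM of copies with high Hspa8, and 22 mice at 402.9 to 507.2 CPM with low Hspa8.

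The heat-inducible pair Hspa1a and Hspa1b went the other way in cortex. Their transcripts are 99.2% identical over the aligned bases, so counts can move between them and the sum is the safer measure. The cortex sum was 4.39, 6.28 and 8.84 CPM in R6/2 vehicle mice, against 8.86, 12.2 and 13.9 CPM in wild-type mice, and no R6/2 mouse reached the lowest wild-type mouse. The exact two-sided permutation test over mice gave p = 0.000155, the smallest its 12870 assignments allow, or 0.00078 adjusted over the 5 tissues, with a mean log2 difference of -0.87. In striatum the sum was 3.15, 4.92 and 8.54 CPM in R6/2 vehicle mice, against 3.2, 4.27 and 5.18 CPM in wild-type mice (exact permutation p = 0.281). In tibialis the R6/2 mice had 3.57, 4.64 and 6.56 CPM and the wild-type mice 2.58, 3.78 and 4.67 CPM, and the exact permutation p of 0.0367 was 0.0917 after adjustment. Heart and liver did not pass either (adjusted 0.144 in both by the same exact test).

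Read separately in cortex, Hspa1b measured 1.43, 2.05 and 3.59 CPM in R6/2 vehicle mice and 4.9, 6.23 and 8.07 CPM in wild-type mice (-1.51 ± 0.16, adjusted p = 1.89e-09), and Hspa1a 2.97, 4.28 and 5.25 CPM in R6/2 vehicle mice and 3.96, 5.64 and 6.33 CPM in wild-type mice (-0.38 ± 0.11, adjusted p = 0.00533). Hspa1b separated the genotypes and Hspa1a overlapped, subject to the shared reads. The genotype effect on Hspa1b differed between tissues: the cortex effect minus the striatum effect was -1.57 ± 0.34, adjusted p = 0.000417 and the cortex effect minus the tibialis effect was -1.86 ± 0.34, adjusted p = 2.26e-06, in log2 units, from a limma fit over all tissues with the mouse as a block. The fall of the Hspa1 pair in cortex stood beside the rise of Hspa8 in the same mice.

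Hspa13, an HSP70 relative of the endoplasmic reticulum, changed in opposite directions in brain and liver. Its cortex levels were 62.8, 63.5 and 66.8 CPM in R6/2 vehicle mice, against 45.4, 47.4 and 50.7 CPM in wild-type mice (0.42 ± 0.03, adjusted p = 3.02e-14), and its striatum levels 59.2, 71.2 and 75.5 CPM in R6/2 vehicle mice, against 44.7, 50.2 and 56.1 CPM in wild-type mice (0.51 ± 0.06, adjusted p = 2.94e-08). The genotypes did not overlap in either brain region. In liver it fell to 25.7, 32.3 and 42.9 CPM in R6/2 vehicle mice, against 31, 45.3 and 65.8 CPM in wild-type mice (-0.44 ± 0.13, adjusted p = 0.0248), with overlap, and that call was lost when the 2 arms were fitted alone. The cortex effect minus the liver effect was 0.83 ± 0.11, adjusted p = 1.73e-09. Hspa13 also rose in tibialis (0.32 ± 0.07, adjusted p = 0.000225).

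Hspa12a, a distant HSP70 relative that is abundant in brain, fell in cortex to 164, 195 and 208 CPM in R6/2 vehicle mice, against 223, 249.8 and 266 CPM in wild-type mice (-0.37 ± 0.05, adjusted p = 4.92e-08), with no overlap. Its relative Hspa12b fell in cortex (-0.17 ± 0.07) and striatum (-0.31 ± 0.08). Hspa1l fell in tibialis (-0.47 ± 0.12, adjusted p = 0.00134), and Hspa2 passed the test in none of the 5 tissues.

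The cytosolic HSP90 genes rose in brain and tibialis. In cortex Hsp90ab1 measured 1503, 1647 and 1693 CPM in R6/2 vehicle mice, against 1236, 1286 and 1355 CPM in wild-type mice (0.34 ± 0.03, adjusted p = 1.51e-11), and Hsp90aa1 1171, 1255 and 1339 CPM in R6/2 vehicle mice, against 929, 1068 and 1143 CPM in wild-type mice (0.24 ± 0.04, adjusted p = 2.33e-06). Both separated the genotypes. In striatum the rises were 0.13 ± 0.04, adjusted p = 0.0119 for Hsp90ab1 and 0.24 ± 0.06, adjusted p = 0.00363 for Hsp90aa1, with overlap.

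In tibialis the pair rose without overlap. Hsp90aa1 reached 76.9, 82.8 and 94.6 CPM in R6/2 vehicle mice, against 47.7, 53.9 and 68.5 CPM in wild-type mice (0.60 ± 0.07, adjusted p = 2.33e-08), and Hsp90ab1 1177, 1324 and 1464 CPM in R6/2 vehicle mice, against 839, 1000 and 1072 CPM in wild-type mice (0.43 ± 0.05, adjusted p = 5.75e-08). In heart and liver 0 of the 3 Hsp90 genes passed the test at an adjusted p under 0.05, by edgeR and by DESeq2. For Hsp90aa1 the tibialis effect minus the heart effect was 0.74 ± 0.11, adjusted p = 4.36e-08, and the tibialis effect minus the liver effect 0.77 ± 0.11, adjusted p = 8.88e-09. The third gene, Hsp90b1, fell in striatum to 215, 284 and 308 CPM in R6/2 vehicle mice, against 315, 354 and 410.0 CPM in wild-type mice (-0.36 ± 0.05, adjusted p = 2.93e-06), with no overlap.

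All 3 genes of the HSP110 type, the nucleotide exchange factors of HSP70, rose in tibialis relative to the median gene, and under every scaling tried. Of all tested genes 23.6% rose in tibialis. Hspa4l measured 15.2, 17.4 and 20.4 CPM in R6/2 vehicle mice, against 10.4, 12.4 and 14 CPM in wild-type mice (0.48 ± 0.09, adjusted p = 2.6e-05), without overlap. Hsph1 changed by 0.30 ± 0.09, adjusted p = 0.0048 and Hspa4 by 0.14 ± 0.05, adjusted p = 0.0223, both with overlap. Elsewhere the 3 genes had 2 changes: Hsph1 fell in striatum (-0.23 ± 0.06, adjusted p = 0.00233) and Hspa4 in liver, to 104, 112 and 123 CPM in R6/2 vehicle mice, against 122, 142 and 153 CPM in wild-type mice (-0.30 ± 0.06, adjusted p = 0.0013).

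By place in the cell, most of 8 members that work in mitochondria rose in cortex, and most fell in tibialis and heart relative to the median gene, a direction that flips in tibialis on uncentred FPKM. They are Hspa9 (mitochondrial HSP70), Hspd1 and Hspe1 (HSP60 and HSP10), Dnaja3 (a J-domain partner of mitochondrial HSP70), Dnajc19 and Dnajc15 (parts of the protein import motor), Dnajc11 (of the mitochondrial membranes) and Dnajc30. In cortex 7 of the 8 rose and 0 fell, and in striatum 3 rose and 0 fell. In tibialis 0 rose and 7 fell, all but Dnajc30, in heart 0 rose and 6 fell, and in liver 0 rose and 2 fell. Of all tested genes, 28.1% rose in cortex and 22.6% in striatum, and 22.2% fell in tibialis, 7.46% in heart and 6.32% in liver. The median log2 change of the 8 was 0.11 in cortex, 0.18 in striatum, -0.45 in tibialis, -0.23 in heart and -0.04 in liver. The striatum value includes an R6/2 library of few long transcripts that was highest for Dnajc30, at 73.9 CPM against 26.8 CPM in the next. Dnajc19 with its copy had a striatum log2 change of 0.23, though its median was 12.5 CPM in R6/2 vehicle and 13.6 CPM in wild-type mice. Its highest R6/2 vehicle library there was at 37.9 CPM. No median of the 8 without such libraries is given. On uncentred FPKM the tibialis direction flips to 4 higher and 1 lower and heart is 0 higher and 3 lower, while on FPKM centred on the median gene they are 0 higher with 7 lower in both tissues.

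Hspa9 and Dnaja3 show the split between tissues. In tibialis Hspa9 measured 356, 406 and 464 CPM in R6/2 vehicle mice, against 583, 649 and 710.3 CPM in wild-type mice (-0.67 ± 0.06, adjusted p = 2.84e-10). Dnaja3 measured 76.6, 80.5 and 96.3 CPM in R6/2 vehicle mice, against 123, 139.6 and 159.5 CPM in wild-type mice (-0.75 ± 0.06, adjusted p = 3.04e-12). Neither gene overlapped between the genotypes in tibialis.

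In cortex both rose by small amounts. Hspa9 had 207, 219 and 229 CPM in R6/2 vehicle mice, against 186, 202 and 210.1 CPM in wild-type mice (0.11 ± 0.03, adjusted p = 0.00191), and Dnaja3 59.2, 60.3 and 64.3 CPM in R6/2 vehicle mice, against 54.4, 57.3 and 59.8 CPM in wild-type mice (0.08 ± 0.03, adjusted p = 0.00658). The cortex effect minus the tibialis effect was 0.77 ± 0.07, adjusted p = 1.08e-19 for Hspa9 and 0.82 ± 0.07, adjusted p = 4.41e-21 for Dnaja3. Dnaja3 also fell in liver, to 77.3, 83.5 and 90.0 CPM in R6/2 vehicle mice, against 97.5, 111 and 125 CPM in wild-type mice (-0.38 ± 0.05, adjusted p = 8.04e-06), the only member whose genotypes did not overlap there, and in heart (-0.20 ± 0.06, adjusted p = 0.0171). Hspa9 fell in liver by -0.21 ± 0.06, adjusted p = 0.0115.

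The chaperonin pair moved together in cortex. Hspd1 had 162, 174 and 184 CPM in R6/2 vehicle mice, against 139.5, 149 and 162 CPM in wild-type mice (0.23 ± 0.03, adjusted p = 8.56e-07), and Hspe1 41.6, 43.3 and 54.6 CPM in R6/2 vehicle mice, against 33.7, 39.1 and 44.3 CPM in wild-type mice (0.17 ± 0.06, adjusted p = 0.0206). The genotypes overlapped for both genes. In striatum Hspd1 rose as well (0.12 ± 0.04, adjusted p = 0.00927). In tibialis both fell, Hspd1 by -0.26 ± 0.06, adjusted p = 0.000831 and Hspe1 by -0.36 ± 0.08, adjusted p = 0.000458. In heart Hspe1 fell without overlap, at 42.4, 48 and 51.9 CPM in R6/2 vehicle mice, against 52.2, 60.7 and 71.7 CPM in wild-type mice (-0.37 ± 0.06, adjusted p = 0.000534), and Hspd1 did not pass (-0.14 ± 0.06, adjusted p = 0.108). The cortex effect minus the tibialis effect was 0.47 ± 0.07, adjusted p = 6.7e-08 for Hspd1 and 0.51 ± 0.15, adjusted p = 0.00433 for Hspe1, whose 3-unit element is shared.

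**Figure D3:**
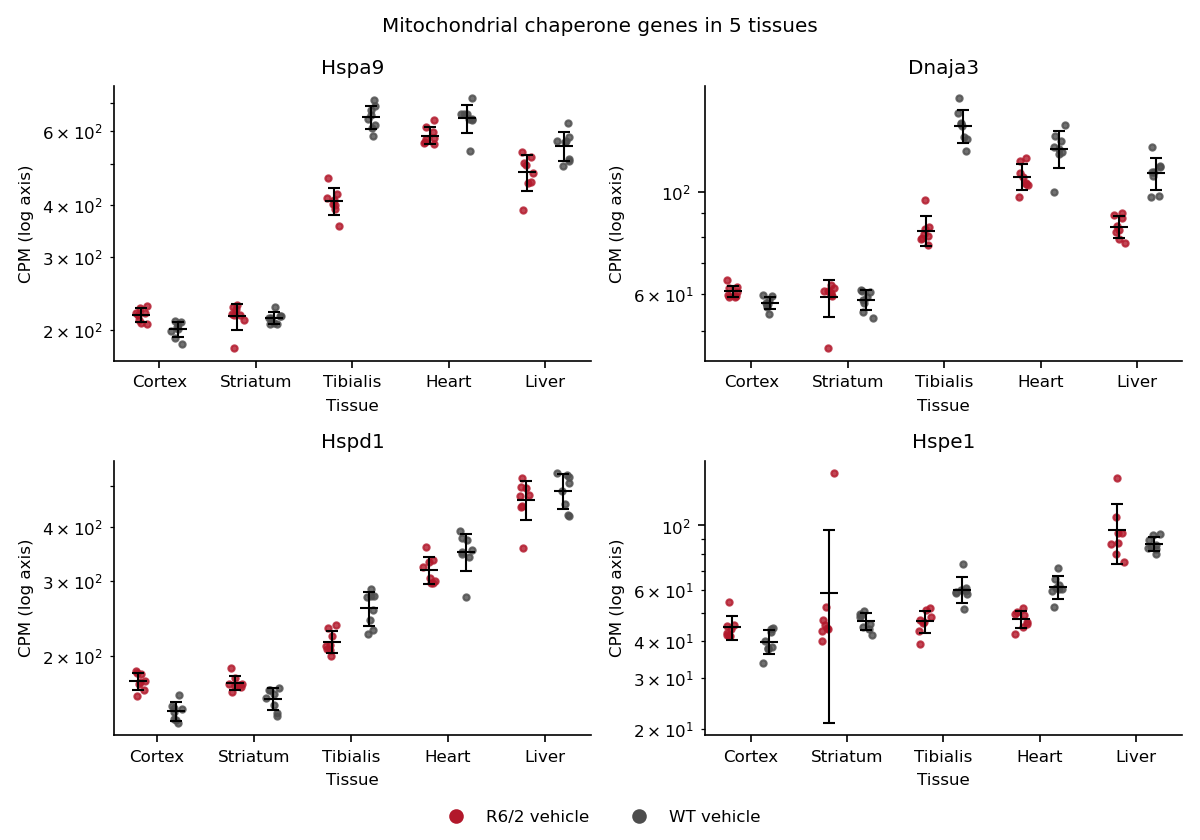
Levels of Hspa9, Dnaja3, Hspd1 and Hspe1 (CPM, log axis) in 5 tissues, R6/2 vehicle left of wild type; points are mice, bars the mean and SD of 8. All 4 genes lie slightly higher in R6/2 cortex and lower in R6/2 tibialis; the tibialis direction is relative to the median gene, and as a group the mitochondrial members flip there on uncentred FPKM.

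The import motor genes fell in both muscles relative to the median gene. Dnajc19 measured 24.6, 25.6 and 28.2 CPM in tibialis of R6/2 vehicle mice, against 37.9, 41.2 and 50.4 CPM in wild-type mice (-0.70 ± 0.08, adjusted p = 7.34e-09), and in heart 18.1, 20.8 and 22.4 CPM in R6/2 vehicle mice, against 22.5, 26.7 and 31 CPM in wild-type mice (-0.40 ± 0.06, adjusted p = 0.000166). The genotypes did not overlap in either muscle. Dnajc15 fell in tibialis (-0.54 ± 0.08, adjusted p = 2.85e-06) and heart (-0.36 ± 0.08, adjusted p = 0.00241), also without overlap, and rose in cortex (0.11 ± 0.04, adjusted p = 0.022) and striatum (0.34 ± 0.13, adjusted p = 0.0296). For Dnajc15 the cortex effect minus the tibialis effect was 0.63 ± 0.12, adjusted p = 9.92e-06. Dnajc30, which has been linked to respiratory complex I and overlaps Bud23, rose in cortex (0.21 ± 0.05, adjusted p = 0.00128) and striatum (0.53 ± 0.18, adjusted p = 0.0154) and fell in heart (-0.22 ± 0.07, adjusted p = 0.0446); 1 R6/2 striatum library stood at 73.9 CPM, far above the next at 26.8 CPM, and the striatum call was lost when the 2 arms were fitted alone (adjusted p = 0.0598).

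The falls in muscle stood beside other changes of those tissues. In tibialis the summed level of 6 fast-fibre markers was 24900 to 36950 CPM in R6/2 vehicle mice and 69310 to 83910 CPM in wild-type mice, and 6 of 6 were lower. In heart 6 cardiomyocyte markers summed to 31770 to 36880 CPM in R6/2 vehicle mice and 36690 to 43230 CPM in wild-type mice, with 5 of 6 lower, and 5 leukocyte markers to 86.8 to 267.8 CPM in R6/2 vehicle mice and 57.7 to 96.3 CPM in wild-type mice. In liver the 5 leukocyte markers summed to 94.1 to 193.8 CPM in R6/2 vehicle mice and 43.3 to 105.1 CPM in wild-type mice. In striatum 5 of 5 striatal neuron markers were lower, and in cortex 4 of 5 astrocyte markers were lower. Their part in the chaperone results was not tested. In bulk tissue, fewer cells of a type and less RNA per cell cannot be told apart.

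Of 6 members of the endoplasmic reticulum (Hsp90b1, Hspa13, Dnajb11, Dnajc1, Dnajc3 and Dnajc10), 0 rose and 3 fell in liver: Hspa13, Dnajc3 and Dnajc1. Dnajc3, which restrains the kinase PERK during stress of that compartment, measured 175, 217 and 235 CPM in R6/2 vehicle livers, against 213, 247 and 302 CPM in wild-type livers (-0.24 ± 0.07, adjusted p = 0.0291), with overlap. On uncentred FPKM 0 of the 6 fell in liver. With the 2 arms fitted alone the liver calls of all 3 were lost, at an adjusted p of 0.0689 for Hspa13 and 0.0791 for Dnajc3, since Dnaja3 and Hspa4 were the only lower members in that fit. In cortex 1 rose and 2 fell, in striatum 1 rose and 1 fell, in tibialis 2 rose and 1 fell, and in heart 0 changed, where on uncentred FPKM tibialis has 6 higher and heart 3 higher. Of all tested genes, 6.32% fell in liver, and 53.9% changed in cortex, 42.4% in striatum, 45.9% in tibialis and 14.4% in heart. Dnajc10, a reductase of disulfide bonds, fell in cortex without overlap (-0.21 ± 0.03, adjusted p = 1.28e-08), and Dnajb11 passed in no tissue.

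The small heat shock proteins changed most in muscle. Hspb6 (HSP20), a partner of actin and 14-3-3 proteins in muscle, fell in tibialis to 282, 307 and 373 CPM in R6/2 vehicle mice, against 569, 774 and 1289 CPM in wild-type mice, a log2 fold change of -1.35 ± 0.12, adjusted p = 1.06e-10. No mice overlapped there. In heart it measured 277, 323 and 392 CPM in R6/2 vehicle mice, against 378, 494 and 590.2 CPM in wild-type mice (-0.53 ± 0.08, adjusted p = 0.000175), with overlap. In cortex, where its level is low, it rose (0.34 ± 0.09, adjusted p = 0.00194), and the cortex effect minus the tibialis effect was 1.64 ± 0.22, adjusted p = 2.63e-10. Its striatum rise (0.51 ± 0.21, adjusted p = 0.0473) rested on 1 R6/2 library at 15.3 CPM, against at most 4.77 CPM in the other R6/2 mice, and was 0.16 with an adjusted p of 0.211 without the libraries of few long transcripts.

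In heart 5 of 9 tested members with an Hspb symbol fell and 0 rose, with a median log2 change of -0.30. These 9 include Hspb11, Hspbap1 and Hspbp1, which are not small heat shock proteins and did not pass there. On uncentred FPKM 2 fell and 0 rose. Of all tested genes 7.46% fell in heart by edgeR's test. Besides Hspb6 the members that fell in edgeR's test were Hspb1 (HSP27), Hspb3, Hspb7 and Hspb8. Hspb1 measured 56.1, 63.6 and 70.0 CPM in R6/2 vehicle hearts, against 62.4, 84.5 and 108 CPM in wild-type hearts (-0.41 ± 0.10, adjusted p = 0.00578). Hspb8, which works with the cochaperone Bag3, measured 257, 301 and 338 CPM in R6/2 vehicle hearts, against 354, 373 and 383 CPM in wild-type hearts (-0.32 ± 0.05, adjusted p = 0.000166). Hspb8 separated the genotypes and Hspb1 did not. Hspb3 was at 3.87, 5.03 and 6 CPM in R6/2 vehicle hearts, against 4.72, 6.44 and 8.07 CPM in wild-type hearts (-0.38 ± 0.12, adjusted p = 0.0378), a call lost without the libraries of few long transcripts (adjusted p = 0.0681). Cryab, the related crystallin that is no member, fell in heart as well, at 670.3 ± 71.6 CPM in R6/2 vehicle mice and 845.0 ± 103 CPM in wild-type mice.

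Hspb8 went the other way in tibialis, where it rose (0.23 ± 0.07, adjusted p = 0.00629), and the tibialis effect minus the heart effect was 0.57 ± 0.11, adjusted p = 1.97e-05. Hspb7 fell in tibialis to 170.5, 217 and 286 CPM in R6/2 vehicle mice, against 189, 294 and 1003 CPM in wild-type mice (-0.77 ± 0.26, adjusted p = 0.016), with overlap. Without the 2 tibialis libraries of few long transcripts that call was lost (-0.38, adjusted p = 0.12), and on uncentred FPKM its sign was reversed. Hspb11, a part of intraflagellar transport that carries the name of the family, rose in tibialis to 2.6, 3.72 and 4.15 CPM in R6/2 vehicle mice, against 1.74, 2.29 and 2.82 CPM in wild-type mice (0.69 ± 0.12, adjusted p = 1.61e-05), with overlap.

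Among the J-domain proteins, Dnajb5 fell in 3 tissues. Dnajb5 is a cytosolic J-domain protein described in heart muscle cells in a complex with HDAC4, a class IIa histone deacetylase. In tibialis it measured 90.3, 116 and 146 CPM in R6/2 vehicle mice, against 190.5, 220.2 and 260.1 CPM in wild-type mice (-0.94 ± 0.10, adjusted p = 1.27e-09), without overlap. In cortex it was at 105, 125 and 156 CPM in R6/2 vehicle mice, against 146, 182 and 225 CPM in wild-type mice (-0.56 ± 0.08, adjusted p = 2.84e-07), and in striatum at 54.6, 100.5 and 128 CPM in R6/2 vehicle mice, against 117, 142 and 190.1 CPM in wild-type mice (-0.55 ± 0.11, adjusted p = 0.000154). In cortex 1 R6/2 mouse, at 156.2 CPM, lay within the wild-type range, and in striatum the ranges overlapped. It did not pass in heart (-0.20 ± 0.09, adjusted p = 0.104) or liver (0.06 ± 0.14, adjusted p = 0.83), and the tibialis effect minus the heart effect was -0.73 ± 0.13, adjusted p = 1.5e-06.

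**Figure D4:**
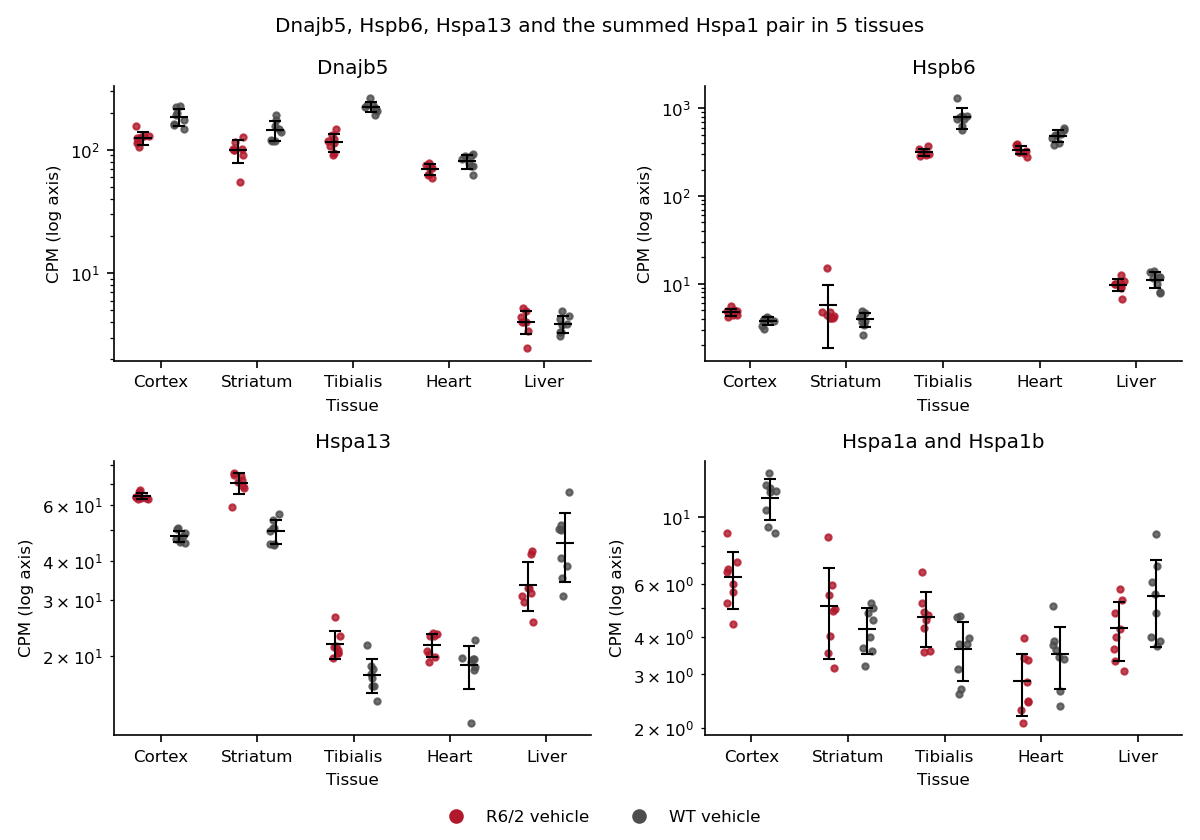
Levels of Dnajb5, Hspb6, Hspa13 and the sum of Hspa1a and Hspa1b (CPM, log axis) in 5 tissues, R6/2 vehicle left of wild type; points are mice, bars the mean and SD of 8. Dnajb5 is lower in R6/2 cortex, striatum and tibialis, Hspb6 lower in R6/2 tibialis and heart, Hspa13 higher in R6/2 brain and lower in R6/2 liver, and the Hspa1 sum lower in R6/2 cortex; tibialis is read relative to the median gene.

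Dnajb2 and Dnajb6, which suppress the aggregation of polyglutamine proteins in cell and animal models, fell in tibialis relative to the median gene. Dnajb6 measured 80.6, 90.6 and 93.6 CPM in R6/2 vehicle mice, against 114, 123 and 135 CPM in wild-type mice (-0.46 ± 0.04, adjusted p = 1.93e-11), and Dnajb2 41, 48 and 52.2 CPM in R6/2 vehicle mice, against 56.1, 61.9 and 71.5 CPM in wild-type mice (-0.43 ± 0.06, adjusted p = 1.04e-06). Both genes separated the genotypes in tibialis, and neither changed in cortex, striatum, heart or liver by the test. For Dnajb6 the cortex effect minus the tibialis effect was 0.46 ± 0.08, adjusted p = 1.28e-06. Both were chosen for mention after their values were seen.

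The general cytosolic J-domain genes moved in other ways. Dnajb4, an HSP70 partner that is abundant in muscle, rose in tibialis to 77.6, 91.1 and 113 CPM in R6/2 vehicle mice, against 60.1, 65.1 and 80.5 CPM in wild-type mice (0.45 ± 0.08, adjusted p = 2.67e-05), and Dnaja4 to 124, 148 and 170.0 CPM in R6/2 vehicle mice, against 83.8, 98.3 and 163 CPM in wild-type mice (0.49 ± 0.12, adjusted p = 0.0012), both with overlap. Dnaja4 was also the only member that rose in liver, at 5.09, 6.98 and 9.31 CPM in R6/2 vehicle mice, against 4.23, 5.03 and 7.23 CPM in wild-type mice (0.34 ± 0.11, adjusted p = 0.043), a call lost without the filter on low counts. Dnaja1 rose in cortex (0.21 ± 0.04, adjusted p = 0.000104) and striatum (0.14 ± 0.05, adjusted p = 0.0308), and Dnajb1, the main heat-inducible partner of HSP70, rose in striatum (0.31 ± 0.08, adjusted p = 0.00123). Of 8 cytosolic members, 7 of them known as heat-inducible (Hspa1a, Hspa1b, Hsph1, Hsp90aa1, Hspb1, Dnajb1 and Dnaja1) and the mainly constitutive Hspa8, which is among the rises in cortex, striatum and tibialis, 3 rose and 2 fell in cortex, 4 rose and 1 fell in striatum, 3 rose in tibialis, 1 fell in heart and 0 changed in liver, and on uncentred FPKM 8 were higher in tibialis. The tibialis rise of Hspa8 was lost with its copies summed (adjusted p = 0.0516). Of all tested genes, 53.9% changed in cortex, 42.4% in striatum, 45.9% in tibialis, 14.4% in heart and 12.8% in liver.

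Dnajc21, which takes part in making the large ribosomal subunit, fell in cortex and tibialis. It was at 16.2, 17.9 and 19 CPM in cortex of R6/2 vehicle mice, against 34.9, 37 and 45.6 CPM in wild-type mice (-1.12 ± 0.05, adjusted p = 1.3e-17), and in tibialis at 51.4, 54.7 and 58.8 CPM in R6/2 vehicle mice, against 88, 95.8 and 108 CPM in wild-type mice (-0.82 ± 0.05, adjusted p = 1.08e-13). The highest R6/2 mouse lay well below the lowest wild-type mouse in both tissues. In striatum, by contrast, it had 12.9, 14.1 and 16.3 CPM in R6/2 vehicle mice, against 13.4, 14.5 and 17.4 CPM in wild-type mice (-0.06 ± 0.06, adjusted p = 0.426). The cortex effect minus the striatum effect was -1.06 ± 0.08, adjusted p = 3.88e-21. Wild-type cortex lay far above wild-type striatum, and R6/2 cortex lay close to the striatum levels.

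Dnajc2, which binds the ribosome and acts with HSP70 on new chains, had the opposite split. It fell in striatum to 27, 28.6 and 35.9 CPM in R6/2 vehicle mice, against 38.2, 41.8 and 52 CPM in wild-type mice (-0.52 ± 0.06, adjusted p = 6.33e-09), without overlap, and did not pass in cortex (-0.06 ± 0.04, adjusted p = 0.206). The cortex effect minus the striatum effect was 0.46 ± 0.07, adjusted p = 1.61e-07. Other J-domain genes also fell in striatum: Dnajc8, of the splicing machinery, by -0.43 ± 0.08, adjusted p = 8.73e-05, and Dnajc7, which also binds HSP90, by -0.34 ± 0.04, adjusted p = 9.7e-08.

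Dnajc12, a cochaperone of the aromatic amino acid hydroxylases, rose in both brain regions. Cortex had 12.8, 14.3 and 16.3 CPM in R6/2 vehicle mice, against 8.59, 9.41 and 10.2 CPM in wild-type mice (0.62 ± 0.06, adjusted p = 1.92e-10), and striatum 13.2, 15.8 and 16.8 CPM in R6/2 vehicle mice, against 8.7, 11.1 and 12.1 CPM in wild-type mice (0.51 ± 0.07, adjusted p = 2.19e-07). The genotypes did not overlap in either region. In tibialis it fell (-0.30 ± 0.08, adjusted p = 0.00305), and the cortex effect minus the tibialis effect was 0.89 ± 0.11, adjusted p = 1.15e-11. Dnajc4 rose in striatum to 8.42, 8.64 and 19.5 CPM in R6/2 vehicle mice, against 5.01, 7.12 and 7.82 CPM in wild-type mice (0.55 ± 0.15, adjusted p = 0.00274), above all wild-type mice, and rose in cortex (0.21 ± 0.07, adjusted p = 0.0108), with overlap.

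The neuronal J-domain genes of the synapse changed little in brain. Dnajc5, the cysteine string protein of synaptic vesicles, fell in cortex by -0.08 ± 0.03, adjusted p = 0.0303, and Dnajc6, auxilin, which strips clathrin from vesicles, rose in cortex by 0.16 ± 0.04, adjusted p = 0.000678 and in striatum by 0.28 ± 0.08, adjusted p = 0.00436. In heart the only rise of the family was Dnajc14, a membrane protein of the endoplasmic reticulum, at 33.5, 35.9 and 38.7 CPM in R6/2 vehicle mice, against 31.5, 32.8 and 34.8 CPM in wild-type mice (0.14 ± 0.04, adjusted p = 0.0122), with overlap. Dnajc13, which works in sorting at endosomes, fell in liver (-0.29 ± 0.09, adjusted p = 0.0324), and without the filter on low counts its adjusted p was 0.051.

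The other members past the test are given here to account for every call, with their log2 fold changes. In cortex Dnajc17, a splicing-linked gene, rose by 0.33 ± 0.07, and Dnajc27, Hspbap1, Dnajc9, Dnaja2, Dnajb12, Dnajc14 and Dnajc18 rose, between 0.10 ± 0.03 and 0.16 ± 0.03. Falls there were -0.25 ± 0.07 for Dnajc1, -0.24 ± 0.04 for Dnajc8, -0.15 ± 0.04 for Dnajc16 and -0.54 ± 0.20 for Hspb2, the last at a median of 0.263 CPM in R6/2 vehicle mice and 0.374 CPM in wild-type mice. In striatum Hspb11 rose by 0.43 ± 0.15, Dnajc9 by 0.25 ± 0.09, Dnajc24 by 0.22 ± 0.08 and Dnaja4 by 0.19 ± 0.07, and Hspb8 fell (-0.33 ± 0.13).

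Tibialis had the most such changes. Dnajc6 was low there, at 0.697, 0.958 and 1.13 CPM in R6/2 vehicle mice and 0.114, 0.271 and 2.1 CPM in wild-type mice, and rose (adjusted p = 0.0291). Dnajc14 (0.39 ± 0.05), Dnajc18 (0.22 ± 0.06) and Dnajc1 (0.21 ± 0.08) rose without overlap. Hspb2 (-0.52 ± 0.12), Dnajc28 (-0.52 ± 0.16), Hspbp1 (-0.36 ± 0.11), which releases nucleotide from HSP70, and Dnaja2 (-0.32 ± 0.05), a general HSP70 partner, fell. Smaller falls, between -0.17 ± 0.06 and -0.31 ± 0.05, were those of Dnajc11, Dnajc9, Dnajc7, Dnajb12, Dnajc10 and Dnajc2. In heart Dnajc11 (-0.25 ± 0.05), Hspb7 (-0.23 ± 0.07), Dnajc7 (-0.19 ± 0.04) and Dnajc8 (-0.14 ± 0.04) fell, and in liver Dnajc1 (-0.23 ± 0.06), Dnajc2 (-0.23 ± 0.07) and Dnajc22 (-0.15 ± 0.05). Besides the 5 members too low to test, Dnajb3, Dnajb11, Dnajb13, Dnajb14, Dnajc25 and Hspa2 changed in no tissue.

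Across tissues, 60 of the 71 members changed in at least 1 tissue and 37 in at least 2. A change in opposite directions in 2 tissues was found for 17 of the 66 members tested in any tissue, or 25.8%, against 14.2% of all such genes. No member changed the same way in 4 or more tissues (0 of 71). Shares of all genes are not given for the counts in at least 1, 2 or 4 tissues. In cortex alone 53.9% of all tested genes changed, so these counts are not read as a trait of the family. A test of whether the genotype effect differs between tissues (limma with voom weights and the mouse as a block, adjusted over all genes) passed for 46 of 66 members, with 53.6% of all genes passing. The members passing it with the smallest adjusted p were Dnajc21 (5.43e-31), Dnaja3 (4.84e-23) and Hspa9 (3.75e-20).

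Genes that work with the family, from lists chosen with results of these data known, were counted in the same way. The background of all tested genes was 28.1% higher and 25.8% lower in cortex, and 22.6% and 19.8% in striatum. In the same order it was 23.6% and 22.2% in tibialis, 6.96% and 7.46% in heart, and 6.5% and 6.32% in liver. The lists were counted and not tested as sets. Of 19 HSP90 cochaperones, 9 rose and 2 fell in cortex, 7 rose and 3 fell in striatum, 2 rose and 9 fell in tibialis, 0 rose and 6 fell in heart, and 2 rose and 1 fell in liver; on uncentred FPKM tibialis flips to 17 higher and 0 lower. Of 14 genes of the cytosolic chaperonin TRiC and prefoldin, 10 rose and 0 fell in cortex, 8 rose and 0 fell in striatum, 4 rose and 5 fell in tibialis, 0 rose and 7 fell in heart, and 0 rose and 1 fell in liver; on uncentred FPKM these are 13 higher and 0 lower in tibialis, 0 and 1 in heart, and 6 and 0 in liver. Cct3, a TRiC subunit, was at 119.0 ± 4.75 CPM in R6/2 vehicle cortex and 86.8 ± 3.7 CPM in wild-type cortex (SD, n = 8). Of 15 HSP70 exchange factors and regulators, 4 rose and 3 fell in cortex, 2 rose and 4 fell in striatum, 3 rose and 8 fell in tibialis, 3 fell in heart and 1 fell in liver; on uncentred FPKM 14 were higher and 0 lower in tibialis, and in striatum 6 were higher and 2 lower.

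Of 8 mitochondrial proteases and related genes, 6 rose in cortex, 2 rose in striatum, 1 rose and 5 fell in tibialis, 1 fell in heart and 1 fell in liver, and on uncentred FPKM 7 were higher and 0 lower in tibialis. Of the heat shock factors, Hsf2 rose in cortex, at 28.4 ± 0.837 CPM in R6/2 vehicle mice and 24.0 ± 1.36 CPM in wild-type mice, and Hsf1 fell in tibialis, at 19.8 ± 1.03 CPM in R6/2 vehicle mice and 28.6 ± 3.05 CPM in wild-type mice, a fall relative to the median gene. In cortex Hsf1 RNA did not pass the test (log2 fold change -0.08, adjusted p = 0.158), in the tissue where the Hspa1 sum fell.

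The second question is whether the compound changed chaperone genes in R6/2 mice. At 30 mg/kg 0 members passed edgeR's test in any tissue, with a background of 0.0% in each; the members with an unadjusted p under 0.05 were 5 in cortex, 1 in striatum, 2 in tibialis, 0 in heart and 9 in liver. At 100 mg/kg 0 members passed in cortex (background 0.00571%), striatum (0.0%), tibialis (0.0%) and heart (0.0126%), with 2, 4, 8 and 3 at an unadjusted p under 0.05 in the same order. In liver 4 members rose and 0 fell at 100 mg/kg, against a background of 1.39% higher and 2.06% in either direction. The count was 8 with DESeq2 and 7 on uncentred FPKM, for which no share of all genes is given. The background above is that of edgeR alone. The 4 were Hsp90aa1, Hsp90ab1, Hspa4l and Hspb1, all cytosolic.

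Hsp90aa1 in liver measured 110.1, 129 and 184 CPM in R6/2 vehicle mice, 111, 169.9 and 281 CPM at 30 mg/kg, 155, 238 and 274 CPM at 100 mg/kg and 108, 163 and 204 CPM in wild-type mice. The 100 mg/kg change from R6/2 vehicle was 0.76 ± 0.12, adjusted p = 0.000748, and the groups overlapped. Hsp90ab1 measured 664, 722 and 772 CPM in R6/2 vehicle mice, 765, 787 and 859 CPM at 30 mg/kg, 792, 928 and 979.9 CPM at 100 mg/kg and 606, 691 and 757 CPM in wild-type mice. Every mouse at 100 mg/kg exceeded every R6/2 vehicle mouse for Hsp90ab1 (0.32 ± 0.05, adjusted p = 0.00131).

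Hspb1 measured 4.35, 5.96 and 13.1 CPM in R6/2 vehicle mice, 5.75, 7.81 and 11.3 CPM at 30 mg/kg, 8.86, 14.2 and 17.8 CPM at 100 mg/kg and 2.92, 4.84 and 7.4 CPM in wild-type mice. It had the largest change of the 4 (1.02 ± 0.21, adjusted p = 0.00675), and its levels overlapped with those of R6/2 vehicle mice. Hspa4l measured 15.3, 20.9 and 22.6 CPM in R6/2 vehicle mice, 20.3, 23.4 and 34.3 CPM at 30 mg/kg, 20.9, 28.3 and 38.3 CPM at 100 mg/kg and 13.4, 23.2 and 28.1 CPM in wild-type mice (0.52 ± 0.12, adjusted p = 0.0151). The median at 30 mg/kg lay between vehicle and 100 mg/kg for all 4 genes, though 0 passed at that dose.

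**Figure D5:**
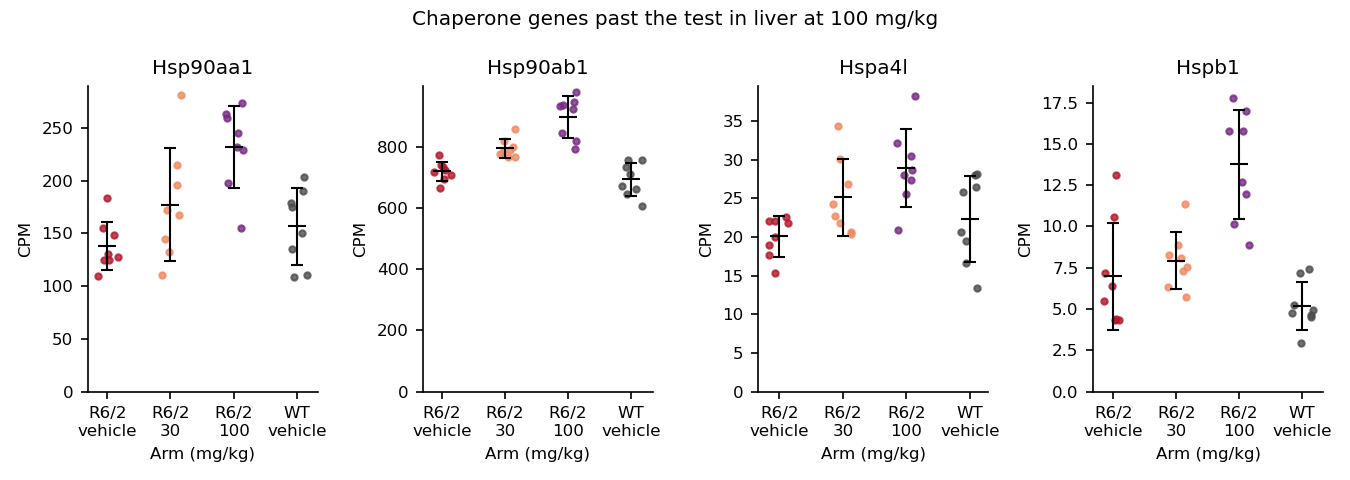
Liver levels (CPM) of Hsp90aa1, Hsp90ab1, Hspa4l and Hspb1 in R6/2 mice given vehicle, 30 or 100 mg/kg and in wild-type mice given vehicle; points are mice, bars the mean and SD of 8. The 100 mg/kg mice are highest on average, and for Hsp90ab1 all 8 lie above all R6/2 vehicle mice.

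None of these 4 genes passed the test between R6/2 vehicle and wild-type livers (adjusted p = 0.414 for Hsp90aa1, 0.552 for Hsp90ab1, 0.534 for Hspa4l and 0.225 for Hspb1). The 100 mg/kg livers stood above wild type for all 4: 0.59 ± 0.12, adjusted p = 0.00126 for Hsp90aa1, 0.37 ± 0.05, adjusted p = 1.77e-05 for Hsp90ab1, 0.40 ± 0.12, adjusted p = 0.0205 for Hspa4l and 1.42 ± 0.21, adjusted p = 2.71e-05 for Hspb1. Hspa1b, at 4.09, 5.24 and 13.9 CPM at 100 mg/kg and 2.79, 3.84 and 5.55 CPM in R6/2 vehicle livers, did not pass (0.78 ± 0.24, adjusted p = 0.0849). Of the lists around the family, the HSP90 cochaperone Stip1 rose at 100 mg/kg, to 66.98 ± 6.81 CPM against 53.1 ± 6.91 CPM in R6/2 vehicle livers, and the TRiC subunit Cct3 rose by 0.33 ± 0.07 (adjusted p = 0.00573).

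The members that fell in R6/2 liver did not pass the test on dosing. Hspa13 changed by 0.36 ± 0.13, adjusted p = 0.14 and Dnaja3 by 0.16 ± 0.05, adjusted p = 0.0917 at 100 mg/kg. Set against wild-type mice, which the genotype comparison shares, the dosed R6/2 mice gave these counts of members, beside the counts of R6/2 vehicle mice given above; in liver, where R6/2 vehicle mice had 1 higher and 9 lower, more members were higher and fewer lower at both doses. At 30 mg/kg 20 were higher in cortex (background 27.7%) and 12 lower (25.4%), or 53.0% of all genes in either direction. In striatum 12 were higher (19.3%) and 8 lower (19.3%; 38.6% either way), in tibialis 18 higher (22.7%) and 20 lower (22.0%; 44.7% either way), in heart 2 higher (2.58%) and 10 lower (4.36%; 6.94% either way), and in liver 3 higher (4.43%) and 5 lower (4.41%; 8.84% either way). At 100 mg/kg 26 were higher in cortex (29.1%) and 11 lower (26.7%), or 55.9% in either direction. In striatum 18 were higher (22.4%) and 12 lower (21.3%; 43.8% either way), in tibialis 19 higher (22.9%) and 21 lower (22.6%; 45.5% either way), in heart 1 higher (2.19%) and 10 lower (3.11%; 5.3% either way), and in liver 7 higher (7.61%) and 6 lower (7.44%; 15.0% either way). In cortex the dosed mice kept Hspa1b low, at 1.39, 2.47 and 4.38 CPM at 30 mg/kg and 1.52, 2.33 and 2.67 CPM at 100 mg/kg, below all wild-type mice.

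The genotype effect differed between males and females for 2 members, both in liver (background 1.79%). Dnajb2 averaged 47.6 CPM in R6/2 males against 41.0 CPM in wild-type males, and 42.3 CPM in R6/2 females against 49.9 CPM in wild-type females, with 4 mice each (males minus females 0.45 ± 0.11, adjusted p = 0.0335). Hspb6 averaged 8.8 CPM in R6/2 males against 12.9 CPM in wild-type males, and 10.8 CPM in R6/2 females against 9.5 CPM in wild-type females (-0.74 ± 0.19, adjusted p = 0.0397). Without the libraries of few long transcripts Hspb6 did not pass (-0.66, adjusted p = 0.0785) and Dnajb2 did (adjusted p = 0.0397). In the other tissues 0 members passed edgeR's test of the sex difference (background 0.0% in cortex and striatum, 0.0508% in tibialis and 0.00632% in heart), with 5, 4, 4 and 3 at an unadjusted p under 0.05 in cortex, striatum, tibialis and heart.

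The sum of Hspa1a and Hspa1b was compared between tissues of the same mouse, and none of the 10 tissue pairs passed after adjustment. The mice include the wild-type mouse whose cortex and striatum contradicted its sex label, so the match of its tissues is uncertain. Over all 32 mice the largest Pearson correlation was that of tibialis with liver, with Pearson's r of 0.427 and Spearman's rho of 0.286 (permutation p = 0.0152 for r, adjusted 0.131, and 0.111 for rho, adjusted 0.556), and r was 0.359 without the 2 mice farthest from the tibialis median. By Spearman's rho the largest was cortex with heart, at 0.34 (permutation p = 0.0571, adjusted 0.556), with Pearson's r of 0.396 (permutation p = 0.0262, adjusted 0.131) and 0.344 without the 2 mice farthest from the cortex median.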

How the data were processed

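The deposited expected counts, estimated reads per gene that are not scaled to depth or length, and the deposited FPKM values, scaled to transcript length and library size, were given by the authors for the same 160 libraries and 43432 genes, per the file headers. Of the counts above 0, 67.7% were whole. Tissue was flash frozen, RNA came from a miRNeasy kit and libraries were made for Illumina sequencing, per the labels' protocols. CASAVA 1.8.2 is named in the submitters' processing notes. The sources used here do not give the aligner, quantifier or genome build. Symbols for 42548 genes came from GENCODE M21.

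Expected counts were rounded and fitted in each tissue on its 32 libraries with edgeR 4.0.16 in R 4.3.3 (filterByExpr by arm, TMM, quasi-likelihood model with arm and sex). The SE was the absolute log2 fold change divided by the root of F. The filter left 17508 genes in cortex, 17428 in striatum, 15760 in tibialis, 15812 in heart and 14931 in liver, and each fit was tested on simulated data. Differences of the genotype effect between tissues were tested with limma 3.58.1 (voom, mouse as block, intra-block correlation 0.0343). FPKM values were tested as log2(FPKM + 0.1) with limma over genes with a mean of at least 0.5 FPKM. Library totals were 30.1 to 39.0 M counts, and precision is set by the spread between mice. The 71 members and all lists were chosen with earlier results of these data known. Genes are named by a rule: up to 5 rises and 5 falls of largest size per tissue among called members whose mean log2 CPM is 1 or more, members past the test on dosing, and members counted in a group; the exceptions are said to be chosen after their values were seen. Alternatives were RLE scaling, no filter, DESeq2 1.42.0, FPKM, a block for replicate number, 2 arms alone, and leaving out 2 libraries whose sex label was contradicted or 16 libraries of few long transcripts; sums with near-identical copies (at least 95% identity over 300 bases, BLAST 2.17.0), FPKM centred on the median gene, and the sex difference without the libraries of few long transcripts were added after seeing the data. Copies exist elsewhere in the table for 10 members and for 61 none was found.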

Additional observations from a re-analysis of the deposited data

Results flagged for a closer look

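The 92 groups of 8 mice behind the named results were searched for a single library far from the other 7, and 18 had one; chance alone gives about 1 in 20 groups. The R6/2 vehicle striatum library of male 2, also 1 of the libraries of few long transcripts, was highest for Dnajc4 (19.5 CPM), Dnajc30 (73.85 CPM), Hspb6 (15.3 CPM), Dnajc2 (35.9 CPM) and Dnajc8 (101.7 CPM) and lowest for Hsp90b1 (214.8 CPM). The wild-type tibialis library of female 4, likewise of few long transcripts, was highest for Dnaja4 (162.9 CPM), Dnajb4 (80.5 CPM), Hspb6 (1289 CPM) and Hspb7 (1003 CPM). The R6/2 vehicle liver library of female 4, of the same kind, was lowest for Dnajc13 (26.5 CPM).

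Other single libraries were not of that kind. Hspa8 was highest in the wild-type cortex of male 2 (1714 CPM) and the wild-type striatum of male 4 (1518 CPM), a library that was also highest for Dnajc2 (51.95 CPM) and Dnajc7 (237.2 CPM). Both libraries came from the same mouse, the only wild type among the 10 mice of low summed Hspa8 copies. Its copies summed to 28.2 CPM in cortex and 20.8 CPM in striatum. Dnajb5 was highest in the R6/2 vehicle cortex of female 4 (156.2 CPM), Dnajb4 in the R6/2 vehicle tibialis of male 2 (112.7 CPM) and Dnaja3 in that of male 4 (96.3 CPM).

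The genotype effect differed between males and females in liver for Dnajb2, by 0.45 (log2, males minus females), and for Hspb6, by -0.74. It differed between tissues by the F test for Dnaja3 (adjusted p = 4.84e-23), Hspa9 (3.75e-20), Dnajc12 (8.58e-14), Hspa13 (2.2e-12), Hspb6 (8.63e-12) and Dnajc15 (1.08e-08), the 6 of smallest p among the members that changed in opposite directions in 2 tissues.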

How the results depend on the processing

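The values for single genes counted here cover the largest rises and falls per tissue and the genes past the test on dosing. Under the alternatives, 410 of these values kept their direction and their side of the threshold. Another 23 kept the direction but no longer passed, and 1 reversed: Hspb7 in tibialis, at 0.047 (log2) on FPKM. Scaling moved the counts of members most. Shares of all genes called are not given for the alternative fits, so these counts have no background of their own. On FPKM, where the median of all genes is higher in R6/2, 7 members were lower in cortex (12 in edgeR), 51 higher and 4 lower in tibialis (15 and 24), 7 higher and 5 lower in heart (1 and 13), 8 higher and 1 lower in liver (1 and 9), and 7 passed at 100 mg/kg in liver (4). Fitting the 2 arms alone gave 11 higher members in striatum (17) and 2 higher and 2 lower in liver. Without the libraries of few long transcripts, heart had 2 higher and 21 lower, liver 3 higher, and the sex difference in liver passed for 1 member (2). DESeq2 gave 2 higher in heart, 3 higher in liver and 8 at 100 mg/kg in liver. Without the filter on low counts liver had 0 higher.

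The replicate number within each sex was not treated as pairing, since the correlations of same-numbered mice had medians from -0.0309 to 0.104 over tissues. With that number as a block, 3 members were higher in heart and 0 in liver (1 in each without it), and it changed no other count of members by more than 1.5 times. Of single genes, striatum Hspb6 lost its call under RLE scaling, no filter, the block, 2 arms alone and without either set of doubted libraries. The cause was not tested. Levels of a few CPM, such as Hspa1a, Hspa1b and Hspb1 in cortex, carry more counting error relative to their size than higher levels. The spread between mice adds to it. Near-identical copies decide the Hspa8 calls in tibialis and heart, as given above, and the sum of Dnaja1 with its copies passed in tibialis (0.14, adjusted p = 0.0442) where Dnaja1 alone did not.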

Other observations

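Dnajc28, a J-domain gene of little known function, had 2 sets of values in heart that the arms do not give: 17 mice at 19.3 to 28.6 CPM and 15 mice at 39.5 to 53.0 CPM. The lower set held 3 R6/2 mice given vehicle, 6 at 30 mg/kg, 3 at 100 mg/kg and 5 wild-type mice. In cortex the same 17 mice had 7.62 to 13.95 CPM and the other 15 had 10.9 to 14.0 CPM. The overlap came from an R6/2 mouse at 100 mg/kg (11.9 CPM) and a wild-type mouse (13.95 CPM). The heart libraries of both were of few long transcripts. The rest of the 17 reached at most 10.3 CPM in cortex, and at most 11.5 CPM in liver, against 12.1 CPM or more in the other 15. In striatum and tibialis they still overlapped the other 15. What divides the mice was not tested.

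As a share of all counts, the 71 members together took a median of 0.749% in tibialis of R6/2 vehicle mice, 0.764% at 30 mg/kg, 0.721% at 100 mg/kg and 0.498% in wild-type mice. In cortex the medians were 1.02%, 0.977%, 0.993% and 0.834% in the same order of arms, in striatum 0.915%, 0.918%, 0.916% and 0.772%, in heart 0.714%, 0.691%, 0.694% and 0.716%, and in liver 0.568%, 0.571%, 0.589% and 0.529%. These shares are of raw library totals, without the scaling of the fits, and leave out the near-identical copies. The median of all genes was itself 0.63 (log2) higher in R6/2 tibialis on uncentred FPKM. The shares therefore cannot show a change relative to the median gene.

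Hyou1, an exchange factor of HSP70 in the endoplasmic reticulum, fell in liver (log2 fold change -0.79 ± 0.21), beside the liver falls of Hspa13, Dnajc3 and Dnajc1. Bag2, a regulator of HSP70, rose in cortex by 0.60 ± 0.06 and in striatum by 1.03 ± 0.13, and Bag3, the partner of Hspb8, fell in heart by 0.24 ± 0.06.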
